A study of Mus musculus with 6 samples.

Results

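The deposited table of normalised reads holds 23407 genes, of which 10 were taken by their symbols. They are the genes of 9 lysosomal cathepsins (Ctsa, Ctsb, Ctsc, Ctsd, Ctsh, Ctsk, Ctsl, Ctss and Ctsz) and Cst3. Cst3 encodes cystatin C, an inhibitor of the cysteine cathepsins among them. Each symbol was found once, and all 10 genes reached the mean of at least 10 normalised reads that was asked of a gene to be tested. Their transcripts were compared between TSP2KO and WT dermal fibroblasts, with 3 bulk RNA-seq libraries for each genotype. TSP2KO cells lack thrombospondin-2, a secreted protein of the extracellular matrix, by their labels, which do not describe the construct. Cells of both genotypes came from the dorsal skin of mice aged 12 weeks. They were freed from the dermis with collagenase, grown for 3 to 5 days in serum to enrich fibroblasts, and harvested at passage 1, with no treatment named for either genotype. Nothing in the labels ties the libraries of a genotype to different animals. The p-values therefore reflect only how far the libraries differ, which may be a technical spread.

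Cathepsins are proteases that are made as inactive precursors, marked with mannose 6-phosphate in the Golgi apparatus and activated in the acid lysosome. Cathepsins B, C, H, K, L, S and Z use a cysteine in the active site, cathepsin D is an aspartic protease, and cathepsin A is a serine carboxypeptidase. Fibroblasts degrade internalised collagen in lysosomes, and cysteine cathepsins can also be secreted and cut matrix outside the cell, where cystatin C inhibits them.

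The library labelled WT 3 went against its label for the targeted gene. Thbs2 had 5177, 6635 and 4891 normalised reads in TSP2KO 1, 2 and 3, against 122061 and 116720 in WT 1 and WT 2 and 8841 in the library labelled WT 3, a log2 fold change of -3.18 with that library and -4.43 without it. Results that rest on it are therefore given both ways. Estimated depth lay between 14776502 and 34599855 reads per library. All 12 fibroblast markers reached the level for testing, and 0 passed by limma, with 3 lower at an unadjusted p under 0.05. These were Pdgfra, a growth factor receptor, and Dcn and Lum, small proteoglycans of the matrix, at log2 fold changes of -1.46, -2.80 and -3.33. Of the 12, 9 had a lower estimate in TSP2KO and 3 a higher one. The 3 were Prrx1, Vim and Col1a1, at 0.28, 0.18 and 0.08 with all libraries. Leaving out that library, Pdgfra passed (limma adjusted p = 0.0401), and the median of the 12 was -0.74 in place of -0.38. Summed macrophage markers ranged from 926 to 1187 normalised reads in TSP2KO and from 3622 to 6798 in WT. Summed keratinocyte markers were 14949, 13488 and 586 in TSP2KO 1, 2 and 3, against 1698.5, 582 and 42862 in WT 1, WT 2 and the library labelled WT 3.

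Ctss was the member that differed most between the genotypes, at 47.5 ± 16.5 normalised reads in TSP2KO and 313 ± 67.0 in WT (SD, n = 3 each). Of the other 9 members, 8 had a lower mean log2 level in TSP2KO by smaller amounts, and Cst3 had a higher one. Counts of lower and higher genes below are of these estimates unless they are said to pass. No member passed the limma test at an adjusted p under 0.05 over the 14707 genes tested, in either direction, against 9 genes called lower and 0 called higher over all genes, 0.0612% of them. At an unadjusted p under 0.05 the count was 1 of 10 members, Ctss, which was lower, against 6.09% of all genes lower, 3.66% higher and 9.75% in either direction. By limma-voom, 0 members and 0 of all genes passed. The median log2 fold change of TSP2KO over WT was -0.46 for the 10 members and -0.01 for all genes tested. Groups did not overlap for 3 members, Ctss, Ctsb and Ctsl, all lower in TSP2KO. The same held for 8.27% of all genes as lower, 5.9% as higher and 14.2% in either direction.

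In the fit without the library labelled WT 3, Ctss passed as lower and the other 9 members did not, against 2.75% of all genes called lower, 2.43% higher and 5.17% in either direction. At an unadjusted p under 0.05, 2 members were then lower, Ctss and Ctsh, and 0 higher, against 12.7%, 11.8% and 24.5% of all genes lower, higher and in either direction. Groups then did not overlap for 4 members, the earlier 3 and Ctsh, all lower in TSP2KO, against 22.3% of all genes lower, 21.1% higher and 43.5% in either direction.

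**Figure D1:**
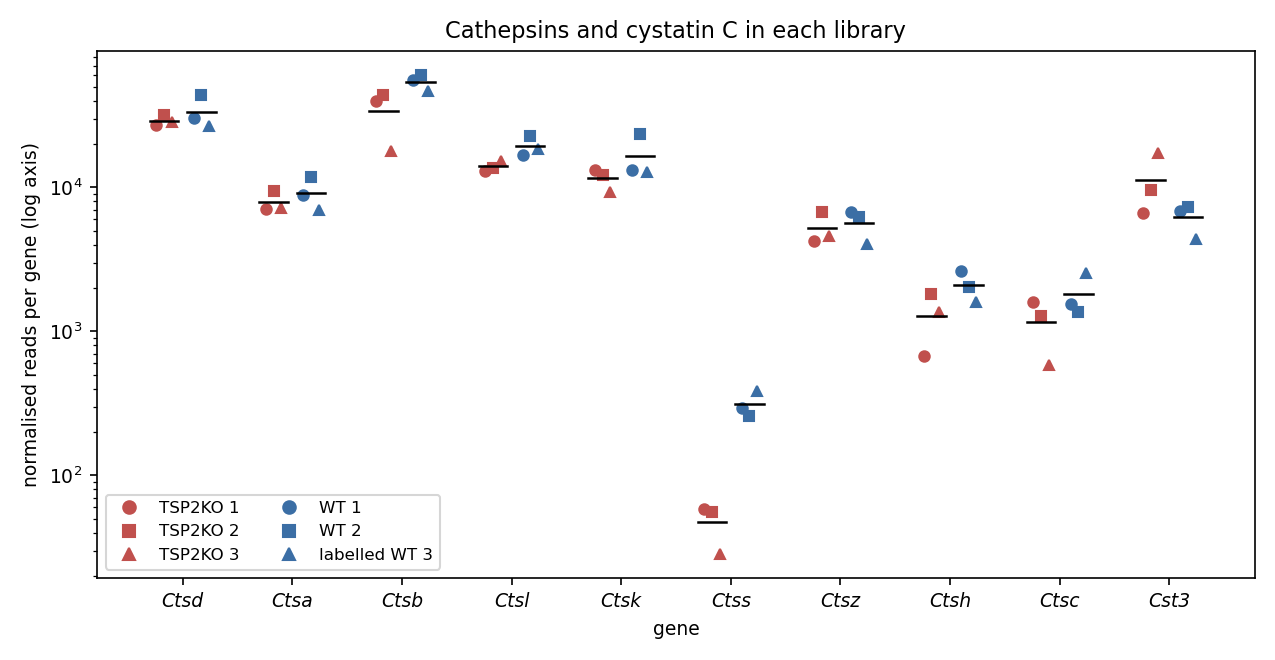
Normalised reads of each member (log axis) in the 3 TSP2KO and 3 WT libraries, with a black line at the mean of each group. Ctss lies between 28.5 and 58.0 in TSP2KO and between 259 and 388 in WT, while most other members have ranges that overlap.

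**Figure D2:**
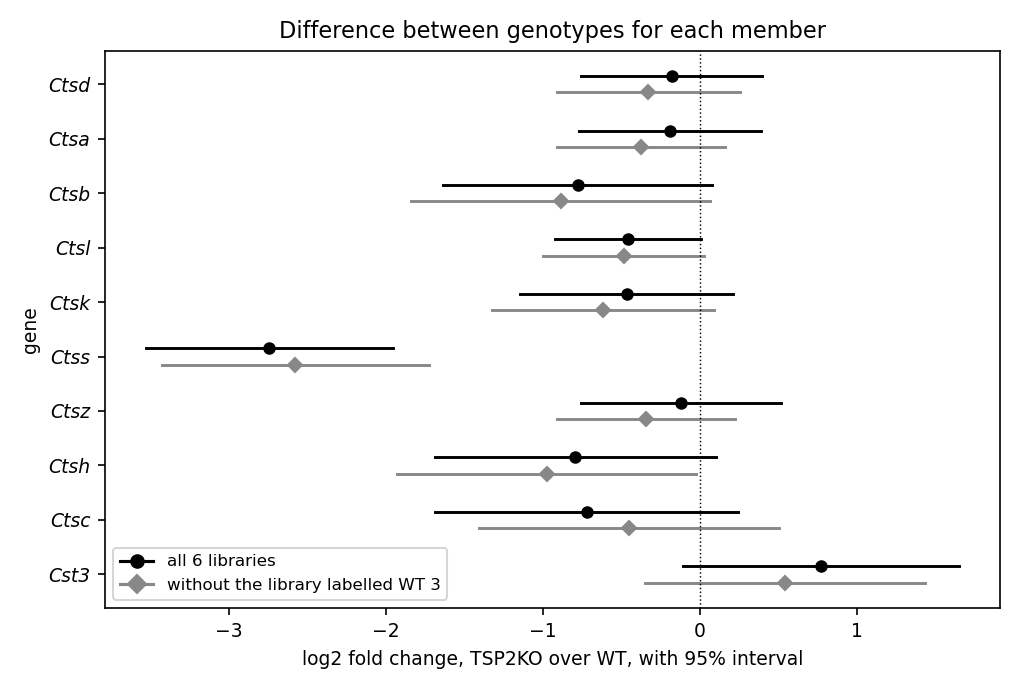
Log2 fold change of TSP2KO over WT for each member with its 95% interval from limma, with all 6 libraries (black) and without the library labelled WT 3 (grey). With all libraries only the interval of Ctss, from -3.53 to -1.95, lies wholly on one side of 0. Without that library the interval of Ctsh, from -1.92 to -0.02, does so too.

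Cathepsin S is an endopeptidase that stays active at neutral pH and is best known from antigen-presenting cells, where it trims the invariant chain of MHC class II. Its gene lies on chromosome 3 from 95526786 to 95556403 on the plus strand (mm10). Ctss had 58.0, 55.9 and 28.5 normalised reads in TSP2KO 1, 2 and 3, against 292, 259 and 388 in WT 1, WT 2 and the library labelled WT 3. The lowest WT library thus lay well above the highest TSP2KO library, and the library labelled WT 3 was the highest of all although its Thbs2 was low. These values correspond to 101, 100.0 and 32.0 reads in TSP2KO and to 566, 661 and 605 reads in WT at the estimated depth. The level was 6.69-fold lower in TSP2KO, or -2.74 on the log2 scale (SE 0.34; adjusted p = 0.0750 by limma), which ranked 13 by p among all genes tested and missed the threshold. Leaving out the library labelled WT 3 gave -2.58, which passed (adjusted p = 0.0186 by limma). Over all 13 alternatives the adjusted p of Ctss lay between 0.0186 and 0.405, and its log2 fold change between -2.92 and -2.42.

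Markers of macrophages, which are not members, were lower in the same TSP2KO libraries. All 17 of the 20 markers that could be tested had a lower mean log2 level in TSP2KO. Their median was -2.58, 15 were under an unadjusted p of 0.05 and 3 passed by limma. The 3 were C1qb, a chain of complement C1q, Msr1, a scavenger receptor, and Cd74, the invariant chain that cathepsin S trims, with log2 fold changes of -3.60, -3.44 and -3.78 (limma adjusted p = 0.0456, 0.0456 and 0.0476). These are 3 of the 9 genes called lower over all genes, where limma-voom called 0. With the library labelled WT 3 left out, 13 macrophage markers passed. Summed over all 20 markers, the level was 1120, 1187 and 926 normalised reads in TSP2KO 1, 2 and 3, against 6798, 5489 and 3622 in WT 1, WT 2 and the library labelled WT 3. Lyz2 had 398, 445 and 595 in TSP2KO and 4557, 3688 and 1758 in WT. It was the largest part of each sum except that of TSP2KO 1, where Mertk had 410. The groups overlapped for Mertk. The mean log2 level of the tested markers, relative to WT 1 and WT 2, was -2.57, -2.51 and -2.58 in TSP2KO 1, 2 and 3. In the library labelled WT 3 it was -0.11. Of the 3 markers too low to test, Fcgr1 and Aif1 were at 0 in every TSP2KO library. The groups overlapped for the other, Cx3cr1, which had 1.72, 1.12 and 10.7 in TSP2KO 1, 2 and 3, against 10.8, 14.9 and 3.21 in WT 1, WT 2 and the library labelled WT 3. Their part in the level of Ctss was not tested. In bulk RNA, fewer cells of a type and less RNA per cell cannot be told apart. Profiles over the 6 libraries were set against that of Ctss for 9147 genes with a mean of at least 100, with predicted and unnamed genes left out. C1qb, Msr1 and Cd74 fell below that mean and were not among them. The macrophage markers Lyz2, Cd14, Csf1r, Cd68 and Mertk reached it and were compared. The 3 genes with the nearest profiles were none of these markers but Slc10a6, Casp4 and Gda. Their root mean square difference from Ctss was 0.27, 0.32 and 0.37 on the log2 scale, each profile being centred on its own mean. Casp4, an inflammatory caspase, averaged 32.1 normalised reads in TSP2KO and 172 in WT.

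**Figure D3:**
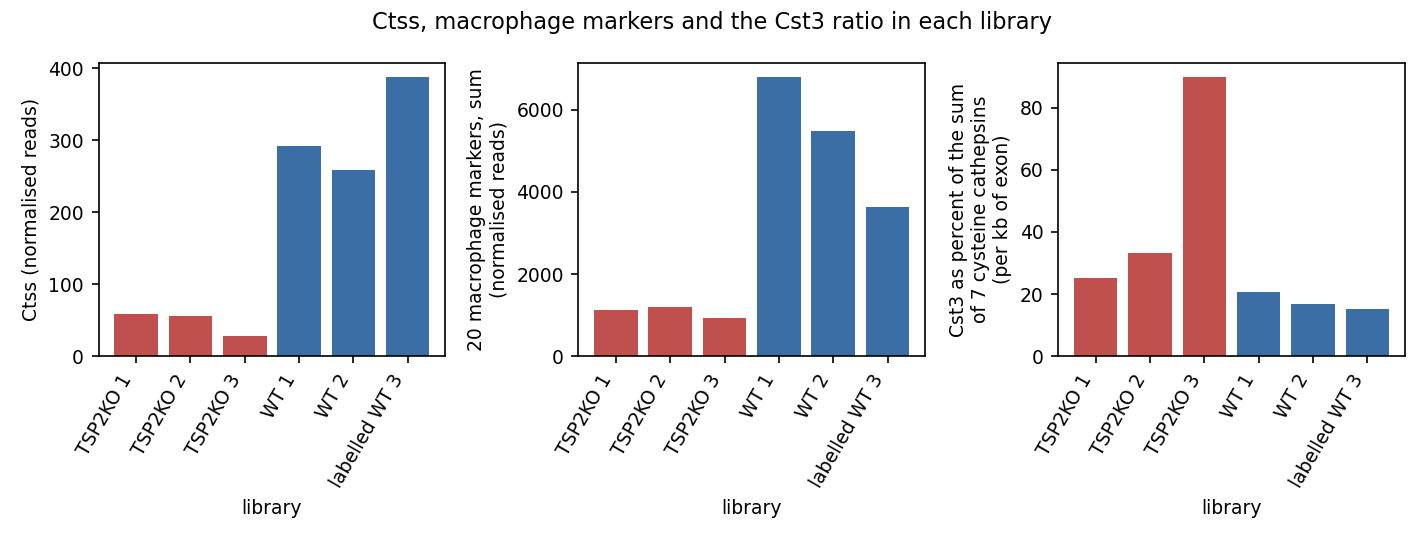
Bars show, for each library, the normalised reads of Ctss, the sum of 20 macrophage markers in normalised reads, and Cst3 as a percent of the sum of 7 cysteine cathepsins, with these genes taken per kb of exon. Ctss and the macrophage sum are lower in all 3 TSP2KO libraries than in any WT library, and the Cst3 percent is highest in TSP2KO 3, at 89.9%.

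Ctsk, the gene of cathepsin K, which cleaves native triple-helical collagen and is abundant in osteoclasts and fibroblasts, lies next to Ctss on the same strand. It spans 95499256 to 95509362 on chromosome 3, and 17.4 kb part the end of Ctsk from the start of Ctss. Ctsk had 13211, 12225 and 9354 normalised reads in TSP2KO 1, 2 and 3, against 13153, 23487 and 12859 in WT 1, WT 2 and the library labelled WT 3. The groups overlapped, WT 2 stood above the other 5 libraries, and TSP2KO 3 was the lowest. Its log2 fold change was -0.46 (SE 0.29, 95% interval -1.14 to 0.21, limma adjusted p = 0.691), and -0.18 without WT 2. Per kb of exon, Ctss amounted to 0.489%, 0.510% and 0.339% of Ctsk in TSP2KO 1, 2 and 3, against 2.47%, 1.23% and 3.36% in WT 1, WT 2 and the library labelled WT 3. This ratio separated the groups, as Ctss alone did and Ctsk alone did not. Ctsk differed by at most 2.51-fold over the libraries, so the ratio mostly restates the difference in Ctss. It was not tested. The nearest profiles to Ctsk were those of Qpct, a glutaminyl cyclase, Slc6a8, the creatine transporter, and Tlr3, a receptor for double-stranded RNA, at differences of 0.12, 0.13 and 0.16.

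The 250 bases upstream of the RefSeq start of each neighbour (GRCm38.p6, plus strand) are shown because these adjacent genes had unlike profiles over the libraries. Capitals mark matches on either strand to GAGGAA, the core that PU.1, a transcription factor of myeloid cells, can bind.
Ctss, chr3:95526536-95526785: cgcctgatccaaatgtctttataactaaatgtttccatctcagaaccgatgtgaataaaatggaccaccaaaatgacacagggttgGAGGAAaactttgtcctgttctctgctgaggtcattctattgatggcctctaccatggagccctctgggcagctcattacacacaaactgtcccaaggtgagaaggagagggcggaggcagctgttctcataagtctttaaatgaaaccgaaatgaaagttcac
Ctsk, chr3:95498960-95499209: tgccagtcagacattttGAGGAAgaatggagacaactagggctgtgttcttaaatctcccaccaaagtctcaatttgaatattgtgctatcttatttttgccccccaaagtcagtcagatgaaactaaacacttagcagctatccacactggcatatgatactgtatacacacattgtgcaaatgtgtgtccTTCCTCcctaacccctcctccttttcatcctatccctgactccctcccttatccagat

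The Ctss window held 1 match, which began 164 bases before the start, and the Ctsk window held 2, at 233 and 58 bases. The RefSeq start used for Ctsk, 95499210, lies upstream of the gene start of 95499256 given above. The bases after it did not match the opening of a GENCODE transcript of Ctsk, so its distances hold for the RefSeq start only. Such a match occurred in 4 of the 9 windows of members and in 23.3% of all 32851 windows of that length in the table, so the letters are common. Spi1, the gene of PU.1, was too low to test. It had 0, 0 and 2.67 normalised reads in TSP2KO 1, 2 and 3. In WT 1, WT 2 and the library labelled WT 3 it had 1.03, 0 and 0.64. The AP-1 motif TGANTCA was in 0 of the 9 windows and in 6.75% of all windows. The table held windows for 8 of the 10 members, all but Ctsb and Ctsh.

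Ctsb and Ctsl encode cathepsins B and L, the broadly expressed cysteine proteases that carry out much of the bulk breakdown of protein in lysosomes. Ctsb (chromosome 14, 63122462 to 63145923, plus strand) had 39809.8, 43809 and 18027 normalised reads in TSP2KO 1, 2 and 3, against 56042, 60618 and 46452 in WT 1, WT 2 and the library labelled WT 3. The groups did not overlap, but the distance between TSP2KO 2 and the library labelled WT 3 was small, and TSP2KO 3 stood far below the rest. This gave a log2 fold change of -0.78 (SE 0.37, 95% interval -1.63 to 0.08, limma adjusted p = 0.563). Without TSP2KO 3 it was -0.37, and without the library labelled WT 3 it was -0.88. Of the exon bases of Ctsb, 12.8% are shared with Fdft1 on the opposite strand, and whether reads were counted by strand is not given in the sources used here, so its level is uncertain to that extent. Fdft1 was far less abundant, between 1534 and 2611 normalised reads.

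Ctsl (chromosome 13, 64359337 to 64370890, minus strand) had 13009, 13710 and 15324 normalised reads in TSP2KO 1, 2 and 3, against 16789, 22706 and 18416 in WT 1, WT 2 and the library labelled WT 3. The groups did not overlap, and the TSP2KO libraries lay close together, with a coefficient of variation of 8.47% against 15.8% in WT. For Ctsl the log2 fold change was -0.45 (SE 0.20, 95% interval -0.92 to 0.01, limma adjusted p = 0.519), and it stayed between -0.55 and -0.33 over the 13 alternatives. An antisense gene, Gm47123, covers 26.8% of the exon bases of Ctsl, but its own values were under 0.001 normalised reads in every library. A processed pseudogene on the same strand, Gm49230, covers 6.09% and had no values under that symbol. The nearest profiles were those of Pla2g4a, a cytosolic phospholipase A2, Tmbim6, a protein of the endoplasmic reticulum that limits cell death, and Pik3ca, a catalytic subunit of phosphoinositide 3-kinase, at differences of 0.06, 0.08 and 0.08.

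The remaining cysteine cathepsins mainly take residues off the ends of proteins. Ctsh, of the aminopeptidase cathepsin H (chromosome 9, 90054152 to 90076089, plus strand), had 669.9, 1814 and 1360 normalised reads in TSP2KO 1, 2 and 3, against 2642, 2043 and 1590 in WT 1, WT 2 and the library labelled WT 3. TSP2KO 2 lay above the library labelled WT 3, so the groups overlapped, and TSP2KO 1 was the lowest. The log2 fold change of Ctsh was -0.79 (SE 0.38, limma adjusted p = 0.578). It was -0.38 without TSP2KO 1, -1.10 without TSP2KO 2 and -0.97 without the library labelled WT 3. Ctsz, of the carboxypeptidase cathepsin Z (chromosome 2, 174427493 to 174439039, minus strand), had 4258, 6794 and 4586 in TSP2KO 1, 2 and 3, against 6696, 6240.0 and 4075 in WT 1, WT 2 and the library labelled WT 3. Its groups were interleaved (log2 fold change -0.12, SE 0.27, 95% interval -0.76 to 0.52, limma adjusted p = 0.926), and the sign turned without TSP2KO 1 or WT 1.

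Ctsc encodes cathepsin C, or dipeptidyl peptidase I, which activates the serine proteases of immune cells and is also found in epithelia. Ctsc (chromosome 7, 88278085 to 88310888, plus strand) had 1605, 1279 and 586 normalised reads in TSP2KO 1, 2 and 3, against 1542.5, 1368 and 2546 in WT 1, WT 2 and the library labelled WT 3. TSP2KO 1 and TSP2KO 2 lay within the WT range or near it, TSP2KO 3 was the lowest and the library labelled WT 3 was the highest. The estimate was -0.72 on the log2 scale (SE 0.41, limma adjusted p = 0.666). It was -0.29 without TSP2KO 3 and -0.45 without the library labelled WT 3. Keratinocyte markers were also highest in the library labelled WT 3, with a sum of 42862 normalised reads, and were 14949, 13488 and 586 in TSP2KO 1, 2 and 3. In WT 1 and WT 2 their sum was 1698.5 and 582. Of 13 keratinocyte markers in the table, 10 could be tested and 0 passed by limma, with 0 at an unadjusted p under 0.05. Krt1 and Krt15 did not exceed 3.21 in any library. Endothelial markers were also highest in the library labelled WT 3, with a sum of 5287 normalised reads there and sums of 593 to 2579 in TSP2KO, against 1164 and 617 in WT 1 and WT 2. The part of either cell type in the level of Ctsc was not tested.

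Ctsd and Ctsa belong to other protease classes and differed least between the genotypes apart from Ctsz. Ctsd, of the aspartic protease cathepsin D (chromosome 7, 142375911 to 142388038, minus strand), had 27138, 31804 and 28368 normalised reads in TSP2KO 1, 2 and 3, against 30182, 43916 and 26744 in WT 1, WT 2 and the library labelled WT 3. Only WT 2 stood above the others. Its log2 fold change was -0.18 (SE 0.25, 95% interval -0.76 to 0.40, limma adjusted p = 0.857). The annotated gene Gm49369 shares 34.4% of the exon bases of Ctsd on the same strand, so reads could be split between them. No values were given under the symbol Gm49369.

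Ctsa, of cathepsin A, which also protects beta-galactosidase and neuraminidase in the lysosome (chromosome 2, 164832873 to 164841032, plus strand), had 7097, 9479 and 7218 normalised reads in TSP2KO 1, 2 and 3. In WT 1, WT 2 and the library labelled WT 3 it had 8825, 11749 and 6929.6. The groups overlapped, and WT 2 was again the highest (log2 fold change -0.19, SE 0.25, 95% interval -0.77 to 0.39, limma adjusted p = 0.850). The estimates for Ctsd and Ctsa turned to 0.03 and 0.01 without WT 2. Pltp and Neurl2 on the opposite strand share 10.5% and 6.87% of the exon bases of Ctsa. Of all 45 pairs of members, Ctsa and Ctsd had the most alike profiles over the 6 libraries, with a root mean square difference of 0.09 on the log2 scale.

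Ctsa and Ctsd were also the members whose upstream windows held TCACGTG, the core of the element that TFEB and related factors of lysosomal genes bind. It stood in 2 of the 9 windows of members and in 3.13% of all windows; the shorter E-box CACGTG, which it contains, stood in 3 of 9, with Ctsl as the third member, and in 6.02% of all. The 30 bases around the match are shown for both genes on the strand of the gene (GRCm38.p6), with the match on either strand in capitals.
Ctsa, chr2:164833743-164833772: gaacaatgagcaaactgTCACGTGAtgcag
Ctsd, chr7:142387908-142387937: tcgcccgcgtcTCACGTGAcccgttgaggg

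The match began 13 bases before a RefSeq start of Ctsa and 99 bases before that of Ctsd, whose window held another match at 245 bases. Both starts lie within the annotated gene. Of the 250 bases of each window, 164 for Ctsa and 211 for Ctsd lie in annotated exons. The matches describe the letters of these windows; binding was not measured.

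Cst3, the only inhibitor among the members, was also the only one with a higher mean log2 level in TSP2KO. It lies on chromosome 2 from 148871722 to 148875692 on the minus strand. Cst3 had 6653, 9636 and 17225 normalised reads in TSP2KO 1, 2 and 3, against 6881, 7295 and 4411 in WT 1, WT 2 and the library labelled WT 3. TSP2KO 1 lay among the WT libraries, so the groups overlapped, and TSP2KO 3 stood far above the other 5 libraries. Its log2 fold change was 0.77 (SE 0.37, 95% interval -0.11 to 1.65, limma adjusted p = 0.581), 0.40 without TSP2KO 3 and 0.54 without the library labelled WT 3. The nearest profiles were those of Col5a1, a chain of fibrillar type V collagen, Cxxc5, a zinc finger protein, and Slc25a42, a mitochondrial carrier of coenzyme A, at differences of 0.11, 0.14 and 0.16. Col5a1 had 6293, 7827 and 16150.4 normalised reads in TSP2KO 1, 2 and 3, against 6465, 7076 and 3544 in WT 1, WT 2 and the library labelled WT 3.

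Within each library, Cst3 was also set against the enzymes it inhibits. The 7 cysteine cathepsins summed to 72620.1, 79687 and 49266 normalised reads in TSP2KO 1, 2 and 3, against 97156, 116721 and 86326 in WT 1, WT 2 and the library labelled WT 3. The groups did not overlap in that sum. Its largest part in every library was Ctsb, whose groups did not overlap either, and the same held for 14.2% of all genes in either direction. With every gene taken per kb of exon, Cst3 amounted to 25.3%, 33.4% and 89.9% of the 7 in TSP2KO 1, 2 and 3, against 20.7%, 16.8% and 15.2% in WT 1, WT 2 and the library labelled WT 3. In reads not divided by length, the percents were 9.16, 12.1 and 35.0 in TSP2KO and 7.08, 6.25 and 5.11 in WT. Every TSP2KO library thus lay above every WT library, by little for TSP2KO 1 and by most for TSP2KO 3, in which Ctsb was lowest and Cst3 highest. The ratio combines members chosen with earlier results known and was not tested. It is one of transcripts and does not give the activity of the proteases.

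**Figure D4:**
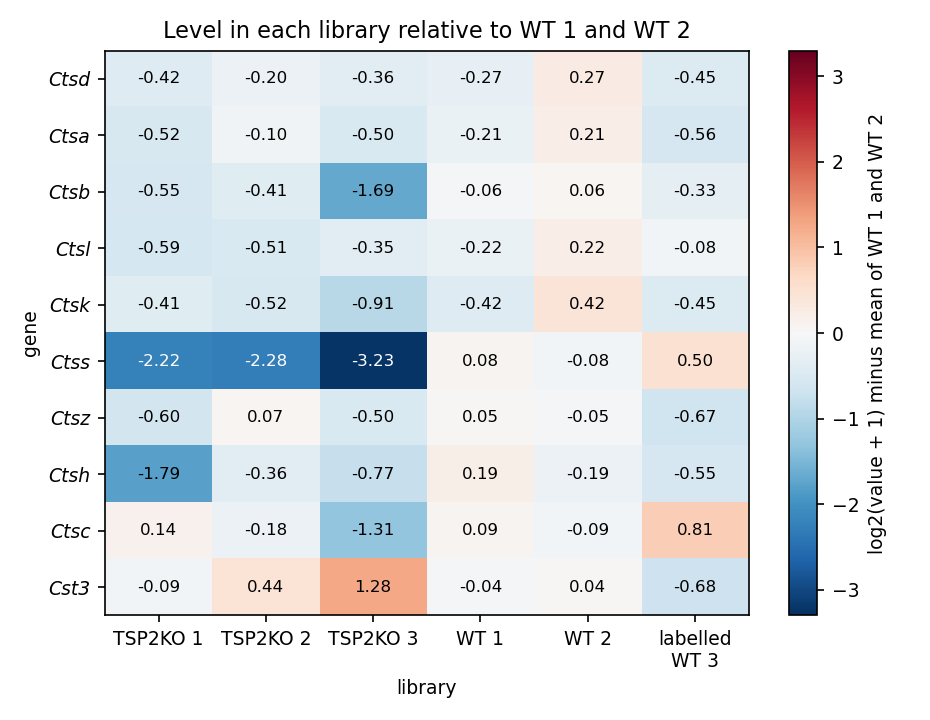
Log2(value + 1) of each member in each library minus the mean of WT 1 and WT 2, with blue below and red above that mean and the value printed in each cell. Ctss is low in all 3 TSP2KO libraries, at -2.22, -2.28 and -3.23, while Ctsb (-1.69) and Ctsc (-1.31) are lowest and Cst3 (1.28) is highest in TSP2KO 3.

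The libraries of a genotype also differed among themselves. Of the 10 members, 5 were highest in WT 2, and 4 each were lowest in TSP2KO 3 and in the library labelled WT 3. In TSP2KO the coefficient of variation was 40.95% for Ctsb, 45.0% for Ctsc, 44.95% for Ctsh and 48.8% for Cst3, against 8.31% for Ctsd and 8.47% for Ctsl. TSP2KO 3 was also the shallowest library, and its keratinocyte markers were far below those of TSP2KO 1 and TSP2KO 2; the part of either in these values was not tested. The members together took 0.980%, 1.14% and 0.776% of all normalised reads in TSP2KO 1, 2 and 3, against 1.11%, 1.32% and 1.06% in WT 1, WT 2 and the library labelled WT 3, so the groups overlapped in the total.

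Levels can be compared between genes only per length, here as normalised reads per kb of merged exon in GENCODE M21, which understates genes with many annotated transcripts. Ctsd was the most abundant member on this scale, at 12379 ± 1029 in TSP2KO and 14298 ± 3865 in WT (SD, n = 3 each). In WT it was followed by Ctsk at 10912 ± 4003, Ctsb at 8985 ± 1195 and Cst3 at 4894 ± 1232. In TSP2KO the same 3 stood in another order, with Cst3 at 8824 ± 4305 above Ctsk at 7669.6 ± 1325 and Ctsb at 5599 ± 2293, but their ranges overlapped. Ctsz, Ctsl and Ctsa came next in both groups, at means of 3617, 2159.7 and 1682 in TSP2KO and 3935, 2975 and 1944 in WT. Between Ctsa and Ctsh was the only step in the order at which the ranges over the 6 libraries did not overlap, with a ratio of means of 4.84. Ctsh, Ctsc and Ctss were the scarcest, with Ctss at 35.0 ± 12.1 in TSP2KO and 230.5 ± 49.4 in WT, the last place in both groups.

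No other cathepsin or cystatin passed with all libraries. Ctso, Ctsf and Ctsw, the further cathepsins present in the table, were tested and 0 passed by limma (0 at an unadjusted p under 0.05). Ctso, a cysteine protease of wide expression, had 666, 874 and 723 normalised reads in TSP2KO 1, 2 and 3, against 1313, 1563 and 769 in WT 1, WT 2 and the library labelled WT 3 (log2 fold change -0.64, limma adjusted p = 0.530). It passed as lower without that library (a log2 fold change of -0.93, adjusted p = 0.0431 by limma). Ctsf averaged 301 in TSP2KO and 484 in WT, a log2 fold change of -0.54 with all libraries and -1.18 without the library labelled WT 3, and Ctsw, known from killer lymphocytes, had at most 35.3 in any library. Of 7 other cystatins in the table, 3 could be tested and 0 passed by limma (0 at an unadjusted p under 0.05). Cstb, stefin B, an inhibitor inside the cell, averaged 1824 ± 61.7 in TSP2KO and 1751 ± 670.1 in WT (SD, n = 3 each). Cst6, cystatin E/M of the epidermis, had 452, 83.9 and 6.23 in TSP2KO 1, 2 and 3, against 22.7, 7.45 and 1181 in WT 1, WT 2 and the library labelled WT 3, with its highest values in the libraries that were also high in keratinocyte markers. Kng2, a kininogen, had a log2 fold change of -1.28 (limma adjusted p = 0.720).

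Among genes of the lysosome around the cathepsins, more had a lower than a higher estimate in TSP2KO, and none passed by limma or limma-voom with all libraries. Of all 14707 genes tested, 7579 had a lower estimate. Leaving out the library labelled WT 3 moved the medians of these lists further below 0, by over 1.5 times. It also moved that of all genes, from -0.01 to -0.03. Among 9 other lysosomal peptidases and proteins of their processing, 7 were lower and the median was -0.16 on the log2 scale, or -0.37 without the library labelled WT 3. Of these, 1 was under an unadjusted p of 0.05 and 2 passed as lower without that library. Lgmn, legumain, the protease that processes several cathepsins, had 823, 1129 and 1112 normalised reads in TSP2KO 1, 2 and 3, against 1946, 2078 and 1602 in WT 1, WT 2 and the library labelled WT 3. Its groups did not overlap (log2 fold change -0.88, SE 0.20, limma adjusted p = 0.204, and 0.0407 without that library). Cpq, a carboxypeptidase, had a log2 fold change of -0.96 with all libraries and -1.77 without the library labelled WT 3 (limma adjusted p = 0.708 and 0.0206).

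Of 44 lysosomal glycosidases, lipases and sulfatases, 36 were lower, with a median of -0.28 (-0.54 without the library labelled WT 3), 1 was under an unadjusted p of 0.05, and 5 passed as lower without that library. Lipa, lysosomal acid lipase, had 1614, 1528 and 1829.6 normalised reads in TSP2KO 1, 2 and 3, against 3426, 3971 and 1807 in WT 1, WT 2 and the library labelled WT 3 (log2 fold change -0.81, limma adjusted p = 0.435, and 0.0206 without that library). The library labelled WT 3 lay with TSP2KO here, unlike for Ctss. Of 27 lysosomal membrane proteins, 19 were lower, with a median of -0.17 (-0.40 without the library labelled WT 3), 2 were under an unadjusted p of 0.05, and 3 passed as lower without that library; Cd68 of this list is also a macrophage marker. Laptm5, a lysosomal membrane protein of blood cells, averaged 56.8 in TSP2KO and 297 in WT (log2 fold change -2.42, limma adjusted p = 0.109, and 0.0186 without that library), and Cd63, a tetraspanin of nearly all cells, 10642 and 14729.5 (log2 fold change -0.47, limma adjusted p = 0.466).

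**Figure D5:**
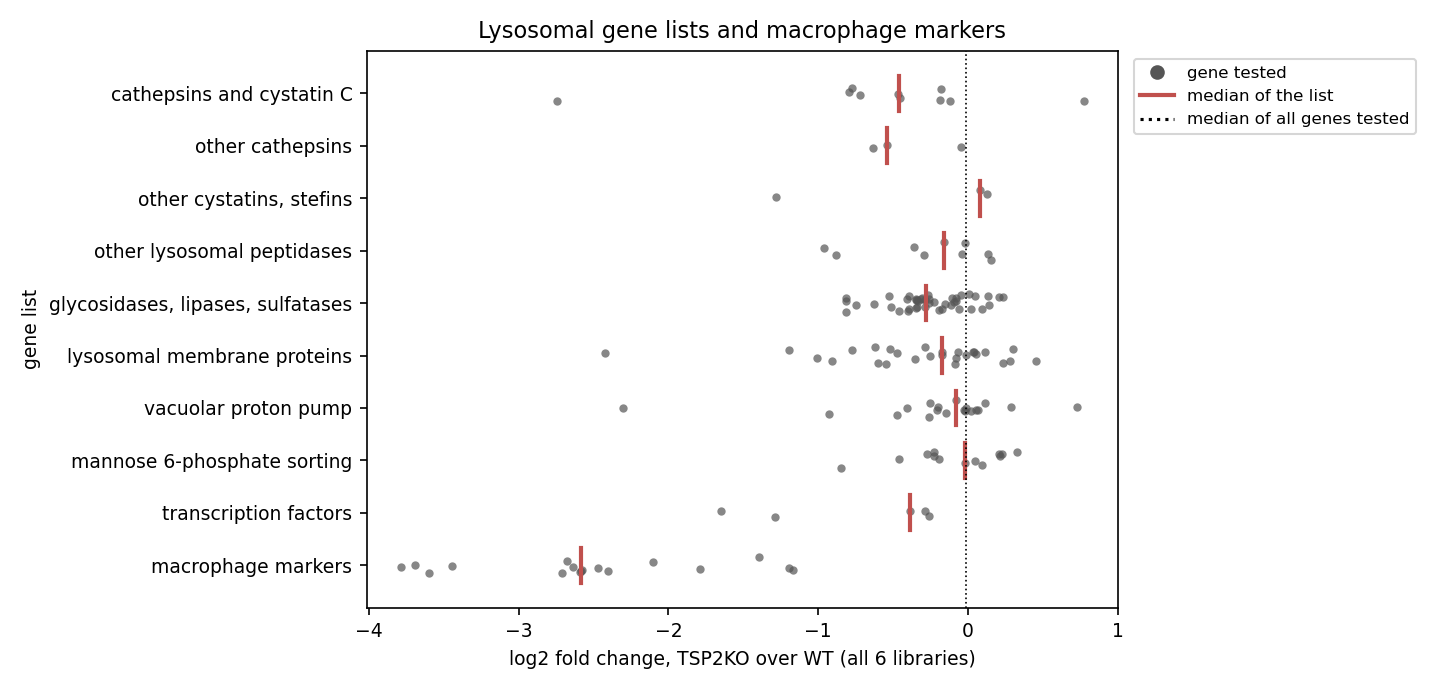
Each point is a tested gene at its log2 fold change of TSP2KO over WT with all 6 libraries, a red line marks the median of its list, and the dotted line marks the median of all genes tested (-0.01). Medians of the lysosomal lists lie between -0.54 for other cathepsins and 0.08 for other cystatins (-0.93 and 0.41 without the library labelled WT 3), and that of macrophage markers lies at -2.58.

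For the vacuolar proton pump, which acidifies the lysosome so that cathepsins can work, 13 of 19 subunits were lower and 6 higher, with a median of -0.08 (-0.24 without the library labelled WT 3). No subunit passed by limma, with 2 lower and 1 higher at an unadjusted p under 0.05, and 0 passed without that library. Atp6v0a1, a membrane subunit, averaged 1397 in TSP2KO and 843 in WT (log2 fold change 0.73, limma adjusted p = 0.210), while Atp6v0d2, a subunit of osteoclasts and macrophages, averaged 28.6 and 90.4 (log2 fold change -2.30, limma adjusted p = 0.440). In the sorting of enzymes by mannose 6-phosphate, 7 of 13 genes were lower, with a median of -0.02 (-0.22 without the library labelled WT 3), 0 passed by limma and 1 was under an unadjusted p of 0.05. That gene was Igf2r, the large receptor for the tag, at 426 in TSP2KO and 804 in WT (log2 fold change -0.85, limma adjusted p = 0.374, and 0.0307 with the library labelled WT 3 left out). The small receptor M6pr averaged 6510.1 in TSP2KO and 5132 in WT, with TSP2KO higher and no overlap (log2 fold change 0.33, limma adjusted p = 0.678). Of 5 transcription factors of lysosomal genes that could be tested, all had a lower mean log2 level, with a median of -0.39 (-0.63 without the library labelled WT 3), 1 was under an unadjusted p of 0.05 and 0 passed by limma. Mitf, a relative of TFEB, had 294, 259 and 155 normalised reads in TSP2KO 1, 2 and 3, against 592, 660.2 and 441 in WT 1, WT 2 and the library labelled WT 3 (log2 fold change -1.29, SE 0.29, limma adjusted p = 0.205, and 0.0421 without that library).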

How the data were processed

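The authors deposited 1 table of normalised signal per gene, named as normalised counts, with a column for each of 6 libraries. Per the submitters' processing notes, mm10 was the genome build, and the tools named are STAR, Partek and DESeq2, with no role given. Dividing each library's total by its most frequent value above 0, taken as 1 read, gave the estimated depth. Between 68.6% and 73.9% of values above 0 were whole multiples of it within 0.02 reads, so whole reads were not recovered and no count test was run. Genotype and number in the column names gave each column its sample; the suffixes differ from those of the labels. After removal of 1 base at the stop, 96.4% of genes had the coordinates of GENCODE M21.

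Genes with a mean of at least 10 were tested on log2(value + 1) with limma 3.58.1 in R 4.3.3 (mean-variance trend, two-sided, Benjamini-Hochberg over 14707 genes, called at an adjusted p under 0.05). Fold changes are on that log2 scale, where those of low genes are understated. The fit was tested on simulated data, with values drawn independently for each gene and library. That test cannot show how the fit handles differences shared by many genes of a library. All members were named. From each list, up to 4 genes with the smallest p could be named, and all tested cathepsins and cystatins. Spi1 and the cell type markers, other than the 4 of macrophages with the smallest p, were named after their values were seen. The members and lists were chosen with earlier results of these data known. Alternatives were other pseudocounts (0.1 and 10), filters (none and 100), rescaling by trimmed means, limma-voom, a replicate block and leaving out each library. Promoter windows came from RefSeq (GRCm38.p6).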

Additional observations from a re-analysis of the deposited data

How the results depend on the processing

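Depth limits Ctss most, with 32.0 estimated reads in TSP2KO 3. Of 130 values for the 10 members over 13 alternatives, 125 kept their direction and their side of the threshold, and that of Ctss without the library labelled WT 3 passed. The other 4 turned in sign near 0: Ctsz to 0.0102 without TSP2KO 1 and 0.0163 without WT 1, and Ctsa and Ctsd to 0.00729 and 0.0315 without WT 2. Leaving out each library in turn gave -0.34 to 0.02 for Ctsz, -0.37 to 0.01 for Ctsa and -0.33 to 0.03 for Ctsd. With all libraries, 9 genes were called lower. The count was 0 with a pseudocount of 0.1, without a filter, with a mean of at least 100, with limma-voom and with the replicate block, and 14 with a pseudocount of 10; the cause was not tested. Leaving out a library gave 0 to 404 genes lower, 0 to 357 higher and 0 to 1 members lower, with every call in the fit without the library labelled WT 3. Same-numbered libraries showed no likeness: the correlations of their deviations were -0.42, -0.25 and -0.39, and 0 of 6 libraries correlated best with its own number. Deviations from a group mean sum to 0 by construction, so these values cannot settle whether same-numbered libraries were prepared together. The block left 0 genes and 0 members called. With only the trimmed-mean rescaling, the median of all genes was 0.01 and that of the members -0.44.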
